A study of Homo sapiens with 6 samples.

Results

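RENBP, the gene of an enzyme that turns one amino sugar into another, had the largest rise of all tested probes when SH-SY5Y cells given atrazine were compared with cells given vehicle. It is described here with 9 other genes of the route from fructose 6-phosphate to activated sialic acid: GFPT1, GNPNAT1, PGM3, UAP1, NAGK, GNE, NANS, NANP and CMAS. All probes whose symbol in the platform annotation was one of these 10 names were taken, each on its own. Of the 10 genes, 9 had a probe, 1 each, out of 22184 probes and 16578 named genes on the array, and PGM3 was not analysed here. All 9 probes were among the 12969 probes kept for testing, which were above background in DMSO, in atrazine or in both (detection p-value under 0.05 on each of the group's 3 arrays). RENBP was chosen by its difference between atrazine and DMSO on these same arrays, so its values are a description and carry no test. The other genes were chosen for their place in the route, with earlier results of these data known.

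SH-SY5Y is an established human neuroblastoma line, a subline derived by cloning from cells of a bone marrow metastasis. Total RNA was measured on 6 Illumina bead arrays, 3 for the vehicle DMSO and 3 for atrazine, a herbicide of the triazine class. The sources used here state neither the dose nor the exposure time. Nor do they say that the 3 replicates of a group were separate cultures, so the p-values may rest on technical spread alone. The title of the study sets the comparison among stress of the endoplasmic reticulum, insulin signalling and damage to mitochondria.

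Sialic acids are acidic sugars that end many glycans of the cell surface, and neural cells carry them on gangliosides and as polysialic acid on the adhesion molecule NCAM. Cells build them from UDP-N-acetylglucosamine (UDP-GlcNAc), the end product of the hexosamine pathway, and also recycle amino sugars released in lysosomes. RENBP, named the renin binding protein because it binds renin, was later found to be N-acetylglucosamine epimerase, which interconverts N-acetylglucosamine and N-acetylmannosamine, the latter being the first dedicated intermediate of sialic acid synthesis. GFPT1, GNPNAT1, PGM3 and UAP1 act in the hexosamine pathway. NAGK phosphorylates salvaged N-acetylglucosamine, GNE makes and phosphorylates N-acetylmannosamine, and NANS, NANP and CMAS carry it on to CMP-sialic acid, the donor for sialyltransferases.

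The promoters of RENBP, the largest rise, and of NANS, whose promoter held most of the motifs searched, are shown because the study's theme is a stress response with known DNA elements. They are the 250 bases before the annotated start, from RefSeq on GRCh38.p14, with motif matches in capitals. RENBP lies on the minus strand at chrX:153944644-153944893, and NANS on the plus strand at chr9:98056482-98056731.
RENBP: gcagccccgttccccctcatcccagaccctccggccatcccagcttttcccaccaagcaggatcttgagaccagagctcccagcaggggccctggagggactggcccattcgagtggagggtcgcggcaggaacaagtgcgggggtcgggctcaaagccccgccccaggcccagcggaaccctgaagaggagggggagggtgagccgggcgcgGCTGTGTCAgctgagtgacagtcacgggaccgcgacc
NANS: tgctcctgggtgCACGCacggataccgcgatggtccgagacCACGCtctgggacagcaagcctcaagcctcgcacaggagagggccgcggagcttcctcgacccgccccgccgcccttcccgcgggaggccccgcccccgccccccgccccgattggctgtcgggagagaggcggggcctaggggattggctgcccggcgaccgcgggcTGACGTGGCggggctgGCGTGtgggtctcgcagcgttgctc
In RENBP the capitals mark 1 match to the antioxidant response element, TGACNNNGC, on the opposite strand. In NANS they mark the unfolded protein response element TGACGTGG, an overlapping match to TGACNNNGC, and 3 copies of GCGTG, the core of the xenobiotic response element.

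In all, 15 promoters of the 10 genes, some with several starts, were searched on both strands beside 35116 promoters of all genes. The unfolded protein response element was in 1 of the 15, that of NANS, and in 0.612% of all promoters. TGACNNNGC was in 3 of the 15 (NANS, NANP and RENBP) and in 10.9% of all. GCGTG was in 9 of the 15, though not in those of RENBP and CMAS, and in 32.2% of all. The C/EBP-ATF element TGATGNAA was in 0 of the 15 and in 3.14% of all. The ER stress response element was in 0 of the 15 and in 0.074% of all. These matches describe letters in the window and say nothing of binding.

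The groups of arrays differed in brightness. Mean raw intensity was 586.6, 939.1 and 532.2 on the DMSO arrays and 235.1, 254.0 and 311.3 on the atrazine arrays, and 58.9% to 59.8% of the probes were above background in DMSO against 43.6% to 52.0% in atrazine. Atrazine replicate 2 stood apart: across probes it correlated at 0.968 and 0.963 with the other two atrazine arrays, which correlated at 0.994 with each other. After normalization (background correction, then quantile normalization, log2 scale), 8734 of 12969 probes passed an adjusted p of 0.05 in limma's test, 67.3% of those tested, 27.7% as rises and 39.6% as falls. The median difference of all tested probes, atrazine minus DMSO, was -0.18. It was -0.90 with median scaling and -0.12 with scaling to the mean of 13 housekeeping probes. The part of these brightness differences in the results below was not tested. The sources used here do not say which chip held which array.

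The RENBP probe (ILMN_1780057, NM_002910) read 75.2, 212.1 and 147.2 raw intensity units on DMSO arrays 1, 2 and 3, and 2629, 3404 and 3352 on atrazine arrays 1, 2 and 3. Every atrazine array was far above every DMSO array although the atrazine arrays were dimmer as a whole. In DMSO the probe was above background on 2 of 3 arrays, with a detection p-value of 0.171 on DMSO replicate 1. It was thus kept through atrazine alone, a filter that favours rises. Normalized, it went from 5.04, 6.07 and 6.35 (mean 5.82 ± 0.69, SD, n = 3) to 12.28, 12.52 and 12.16 (mean 12.32 ± 0.18, SD, n = 3). That is a difference of 6.50 on the log2 scale, or 90.3-fold. In RNA of a whole culture, more cells with the transcript and more transcript per cell cannot be told apart. The spread of the atrazine arrays was small, and the dim DMSO arrays were the less certain side of the ratio.

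RENBP was first among 12969 tested probes by the size of its rise. The next were NRROS at 6.47, SYNGR1 at 6.16, H2AJ at 5.45 and SIGLEC12 at 5.44, so the second was close behind it. On the DMSO arrays 29.0%, 54.0% and 57.5% of all probes were dimmer than the RENBP probe, and on the atrazine arrays 99.0%, 99.2% and 98.9%. It thus stood near the middle of the array or lower in DMSO and among the brightest probes in atrazine, a reading that uses no scaling between arrays. The difference was 6.10 with median scaling and 6.88 with housekeeping scaling. It was 5.74 in the authors' processed values and 4.55 in the raw intensities with no scaling at all. Leaving out 1 array at a time gave 6.06 to 6.67, the lowest without DMSO replicate 1.

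**Figure D1:**
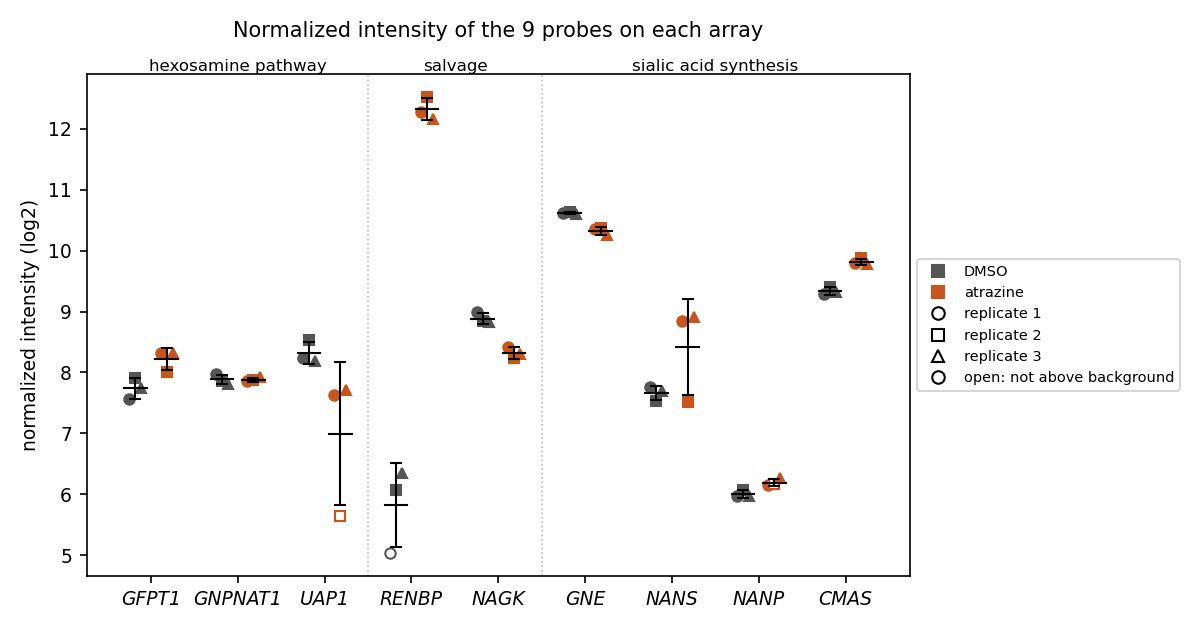
Normalized log2 intensity of the 9 probes on each of the 6 arrays, with DMSO in grey and atrazine in orange, replicates by marker shape, group means as horizontal bars and SD (n = 3) as error bars. Open markers were not above background on that array. RENBP moves from 5.82 to 12.32, and the other means differ by 0.004 to 1.32.

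Changes of the other 8 measured genes were far smaller than that of RENBP, from 0.004 to 1.32 in size on the log2 scale. GFPT1 and CMAS rose, NAGK and GNE fell, and GNPNAT1, UAP1, NANS and NANP did not pass the test. These 4 of 8 (50%) stand beside 67.3% called among all tested probes. The groups did not overlap in 6 of the 8, where 75% of all tested probes did not overlap. Both shares were no higher than those of all tested probes. The median difference of the 8 was 0.09, against -0.18 for all.

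The directions of the rises depended on the scaling. Median scaling gave 0 rises and 6 falls among the 8, where 83.7% of all probes were called, 15.3% as rises and 68.5% as falls. Housekeeping scaling gave 1 rise and 3 falls, where 72% were called, 33% as rises and 39% as falls. UAP1, kept through DMSO alone, was among the falls under both scalings. The members' median was then -0.89 and -0.11, close to the medians of all probes under the same scalings (-0.90 and -0.12). Raw intensities without scaling were lower on every atrazine array than on any DMSO array in 7 of the 8, NANS being the exception, as they were in 81.5% of all tested probes. RENBP was the one gene of the 9 that was higher on all atrazine arrays in raw intensity, which 1.35% of all tested probes were. Since RENBP was chosen for its rise on these arrays, this is a description and no test.

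**Figure D2:**
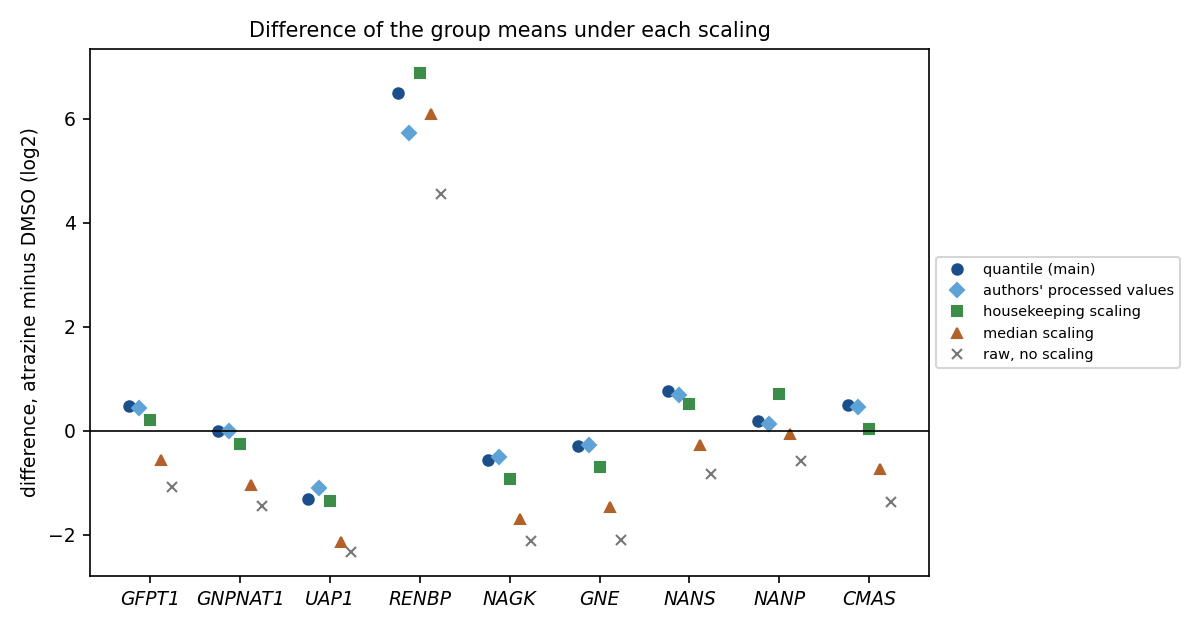
Difference of the group means, atrazine minus DMSO on the log2 scale, for each of the 9 probes under 5 ways of scaling the arrays. RENBP is between 4.55 and 6.88 under all 5, while GFPT1 and CMAS are above 0 with quantile and housekeeping scaling and below 0 with median scaling or none.

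In the hexosamine pathway, GFPT1 encodes the rate-limiting first enzyme, which makes glucosamine 6-phosphate from fructose 6-phosphate and glutamine. Its probe (ILMN_1696000) read 7.57, 7.91 and 7.74 in DMSO and 8.32, 8.01 and 8.32 in atrazine, and the groups did not overlap. The rise of 0.48 (SE 0.14, 95% interval 0.16 to 0.80) passed the test across all probes (limma adjusted p = 0.0165). Under median scaling it fell by 0.57 (adjusted p = 0.0245), and under housekeeping scaling the difference was 0.21 (adjusted p = 0.3). Relative to the median of all probes it was higher by 0.65 with quantile normalization and by 0.32 with the other scalings, which differ from each other by a constant and so give the same relative value. Leaving out DMSO replicate 1 or 3, or atrazine replicate 1 or 3, each took the adjusted p over the threshold, to 0.0501 at the lowest and 0.0587 at the highest.

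GNPNAT1, which acetylates glucosamine 6-phosphate, was flat. Its probe (ILMN_1786698) read 7.97, 7.87 and 7.82 in DMSO and 7.86, 7.87 and 7.92 in atrazine. The groups overlapped, and the difference of -0.004 had a 95% interval of -0.23 to 0.22 (limma adjusted p = 0.971). With median scaling it fell by 1.04 (adjusted p = 1.32e-04), close to the shift of all probes there.

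UAP1 makes UDP-GlcNAc itself. Its probe (ILMN_1742461) read 8.24, 8.53 and 8.19 in DMSO and 7.63, 5.65 and 7.71 in atrazine. All atrazine arrays were lower, and atrazine replicate 2, not above background with a detection p-value of 0.0876, was much lower than the other two. The probe was thus kept through DMSO alone, a filter that favours falls. The difference of -1.32 (SE 0.51, 95% interval -2.52 to -0.13) just missed the threshold (limma adjusted p = 0.0505). Without atrazine replicate 2 it was -0.67 and passed (adjusted p = 7.49e-04), a smaller difference with a smaller spread. The call sat at the threshold: it also passed without atrazine replicate 1 (adjusted p = 0.0409) or 3 (0.0291), with median scaling (8.78e-04) and with housekeeping scaling (0.00327), and 7 of the 16 alternatives that kept the probe left it uncalled. The sign was negative under all 16, with values from -2.14 to -0.67. Since the probe was kept through DMSO alone, these adjusted p-values add no support to a fall.

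The other salvage gene beside RENBP is NAGK, the kinase that returns free N-acetylglucosamine to the pool. Its probe read 8.99, 8.84 and 8.82 in DMSO and 8.43, 8.23 and 8.31 in atrazine (ILMN_1716547). It fell by 0.56 (SE 0.10), a DMSO level 1.47-fold that of atrazine (limma adjusted p = 0.00234). It stayed lower and past the threshold in each of 17 alternatives, with adjusted p from 1.30e-05 to 0.012.

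Sialic acid synthesis starts with GNE, an enzyme of 2 activities that makes N-acetylmannosamine from UDP-GlcNAc and phosphorylates it. It read 10.61, 10.64 and 10.60 in DMSO and 10.35, 10.37 and 10.25 in atrazine (ILMN_1664172). The groups were tight and did not overlap. GNE fell by 0.29 (SE 0.09, 95% interval -0.51 to -0.08, limma adjusted p = 0.0235), a small difference. Relative to the median of all probes it was at -0.12 with quantile normalization and at -0.58 with the other scalings. Leaving out DMSO replicate 2 or 3, or atrazine replicate 1 or 3, each raised the adjusted p past the threshold, to between 0.0545 and 0.0772.

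NANS, the synthase that joins N-acetylmannosamine 6-phosphate with phosphoenolpyruvate, read 7.76, 7.53 and 7.70 in DMSO and 8.84, 7.51 and 8.91 in atrazine (ILMN_1815874). Atrazine replicates 1 and 3 were above all DMSO arrays and atrazine replicate 2 was below them all. The difference of 0.76 (SE 0.35, 95% interval -0.06 to 1.57) did not pass (limma adjusted p = 0.0888). Without atrazine replicate 2 it was 1.23 and passed (adjusted p = 4.01e-06). The call for NANS thus turned on the array that stood apart, and with median scaling of all 6 arrays the value was -0.27 (adjusted p = 0.493).

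NANP, the phosphatase that releases free sialic acid, was dim. Its probe (ILMN_1667132) read 5.98, 6.08 and 5.97 in DMSO and 6.15, 6.18 and 6.26 in atrazine, with atrazine replicate 2 not above background (detection p-value 0.0523). The groups did not overlap, yet the difference of 0.19 (SE 0.09, 95% interval -0.03 to 0.41) did not pass (limma adjusted p = 0.114). With housekeeping scaling it was 0.71 (adjusted p = 6.68e-04).

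CMAS, which activates sialic acid to CMP-sialic acid in the nucleus, read 9.29, 9.40 and 9.32 in DMSO and 9.80, 9.88 and 9.79 in atrazine (ILMN_1714082). The groups were tight and apart, with a rise of 0.49 (SE 0.09), or 1.40-fold (limma adjusted p = 0.00275). The same probe fell by 0.74 with median scaling (adjusted p = 7.92e-04) and differed by 0.04 with housekeeping scaling (adjusted p = 0.805). Relative to the median of all probes it was higher by 0.66 with quantile normalization and by 0.16 with the others.

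**Figure D3:**
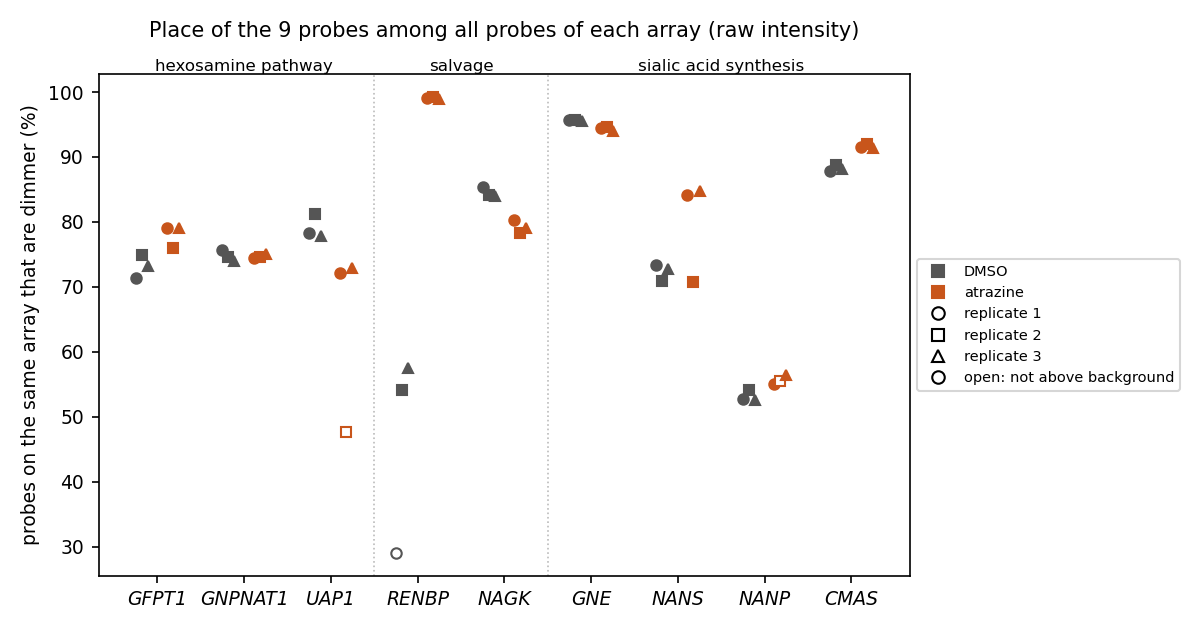
Percent of all probes on the same array that were dimmer than each of the 9 probes, from raw intensities, so that no scaling between arrays enters. DMSO is grey and atrazine orange. Each probe is to be read against itself: RENBP moves from 29.0% to 57.5% in DMSO to about 99% in atrazine, UAP1 drops to 47.6% on atrazine replicate 2 alone, and NANS is at 70.8% on that array against 84.1% and 84.7% on the other two.

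A further 6 lists, of genes around this route, held 45 tested genes, of which 31 passed in limma's test, 17 higher and 14 lower in atrazine. This is beside the 67.3% of all tested probes, and each gene was read on its brightest kept probe. Under median scaling 8 rose and 32 fell, where 15.3% of all tested probes rose and 68.5% fell. Under housekeeping scaling 14 rose and 11 fell, where 33% rose and 39% fell. The counts of each list under these scalings are to be read beside the same shares. Of the 45, 31 were above background on all 6 arrays, and of these 15 rose and 6 fell. The share of all probes under the same condition was not taken, so these counts have no like comparator. With detection p under 0.01 on all 6 arrays, 2103 of 6178 probes rose and 1882 fell. The other 14 were kept through 1 group alone, 12 through DMSO and 2 through atrazine. Such a filter favours falls in the first case and rises in the second, so their adjusted p-values add no support to those directions. Among the rises named below, raw values of the groups overlapped for CTBS, DPAGT1, NEU4, ST3GAL1, MAG and ANPEP. They were lower on every atrazine array for MGAT2, SLC17A5 and the brightest MGAT4B probe, and higher on every atrazine array for SIGLEC12.

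Of 11 tested genes of other amino sugar metabolism, 1 rose, 3 fell and 7 did not pass (median -0.08, against -0.18 for all probes). Among all tested probes 27.7% rose and 39.6% fell. CTBS, the lysosomal chitobiase that trims N-glycan cores, rose by 2.01 (SE 0.36, limma adjusted p = 0.00194), from 6.78, 7.38 and 6.80 to 9.41, 8.13 and 9.43. Like NANS, it was lowest among atrazine arrays on replicate 2. HEXD, a hexosaminidase, fell by 1.71, and SLC35A3, a Golgi carrier of UDP-GlcNAc, fell by 0.71. Both were above background on 2 of 3 atrazine arrays and so kept through DMSO alone. With median scaling the list had 1 rise and 9 falls.

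Among the N-glycan GlcNAc transferases, which spend UDP-GlcNAc, 4 of 6 tested genes rose and 0 fell (median 0.58), where 27.7% of all tested probes rose and 39.6% fell. All 6 were above background on every array, while those shares also cover probes kept through 1 group alone. DPAGT1, which starts the lipid-linked oligosaccharide, read 7.04, 6.94 and 6.95 in DMSO and 8.71, 9.12 and 8.82 in atrazine, a rise of 1.90 (SE 0.13, limma adjusted p = 2.45e-05). MGAT2, of the Golgi branching steps, rose by 1.07 (adjusted p = 2.31e-04). MGAT4B, a branching enzyme too, rose by 0.72 on its brightest probe (adjusted p = 9.65e-04) and by 2.55 on a second kept probe (adjusted p = 1.32e-05). With median scaling, where 15.3% of all probes rose and 68.5% fell, the list had 1 rise and 4 falls, MGAT2 being at -0.09 and the brightest MGAT4B probe at -0.44, and with housekeeping scaling 3 rises and 0 falls.

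Of 7 tested genes of sialic acid transport, removal and breakdown, 3 rose and 3 fell (median 0.22), where 27.7% of all tested probes rose and 39.6% fell. SLC17A5, the carrier that exports free sialic acid from lysosomes, rose by 0.67 (limma adjusted p = 5.69e-04), and was at -0.52 with median scaling. NPL, the lyase that breaks sialic acid down, was above background on 2 of 3 atrazine arrays and so kept through DMSO alone. It fell by 0.83, a call lost with housekeeping scaling (-0.33, adjusted p = 0.0809). NEU4, a sialidase above background on 1 of 3 DMSO arrays and so kept through atrazine alone, went from 5.43, 5.24 and 5.33 to 6.02, 7.69 and 7.0, a difference of 1.57. With median scaling the list had 1 rise and 6 falls, and with housekeeping scaling 1 and 1.

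Sialyltransferases went both ways, with 5 of 14 tested genes higher and 6 lower (median -0.22, or -0.11 with genes below background at their bound). Beside them, 27.7% of all tested probes rose and 39.6% fell. ST3GAL1 rose by 1.13 (SE 0.12, limma adjusted p = 1.40e-04). ST3GAL2, which acts on gangliosides and O-glycans, had 0 of 3 atrazine arrays above background. It was kept through DMSO alone and was at least 1.72-fold lower in atrazine. ST8SIA3, of the family that adds sialic acid to sialic acid, was likewise kept through DMSO alone and at least 1.37-fold lower. Its call was lost with housekeeping scaling (adjusted p = 0.0629). Median scaling gave 1 rise and 11 falls, and housekeeping scaling 2 and 5.

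Of 15 genes of sialic acid-binding lectins 12 had a probe and 4 were tested. Of these 3 rose and 1 fell, where 27.7% of all tested probes rose and 39.6% fell. SIGLEC12, above background on 2 of 3 DMSO arrays and so kept through atrazine alone, went from 5.06, 5.44 and 5.79 to 11.39, 10.23 and 11.01 on 1 probe, a difference of 5.44. Its other 2 probes, above background on no array in either group (differences 0.29 and 0.05), were not kept and did not show this rise. MAG, a lectin of myelin, rose by 1.71 (adjusted p = 2.97e-04). Its raw values overlapped, at 220.6, 259.9 and 210.7 in DMSO and 193.8, 271.9 and 253.3 in atrazine. SIGLEC6 had no atrazine array above background, was kept through DMSO alone and was at least 1.21-fold lower in atrazine. Its call was lost with housekeeping scaling (adjusted p = 0.723), where the list had 3 rises and 0 falls. Of the renin-angiotensin genes, listed because RENBP binds renin, 3 were tested. ATP6AP2, the prorenin receptor and a subunit of the vacuolar proton pump, fell by 0.56 (adjusted p = 0.00583), the aminopeptidase ANPEP rose by 0.42 (adjusted p = 0.0485), and the angiotensin receptor AGTR1 was at -0.15 (adjusted p = 0.298). The ANPEP call was marginal and was lost under 8 alternatives, among them no background correction (adjusted p = 0.0668), the authors' values (0.0675) and leaving out DMSO replicate 1, 2 or 3 (0.147, 0.112 and 0.088).

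**Figure D4:**
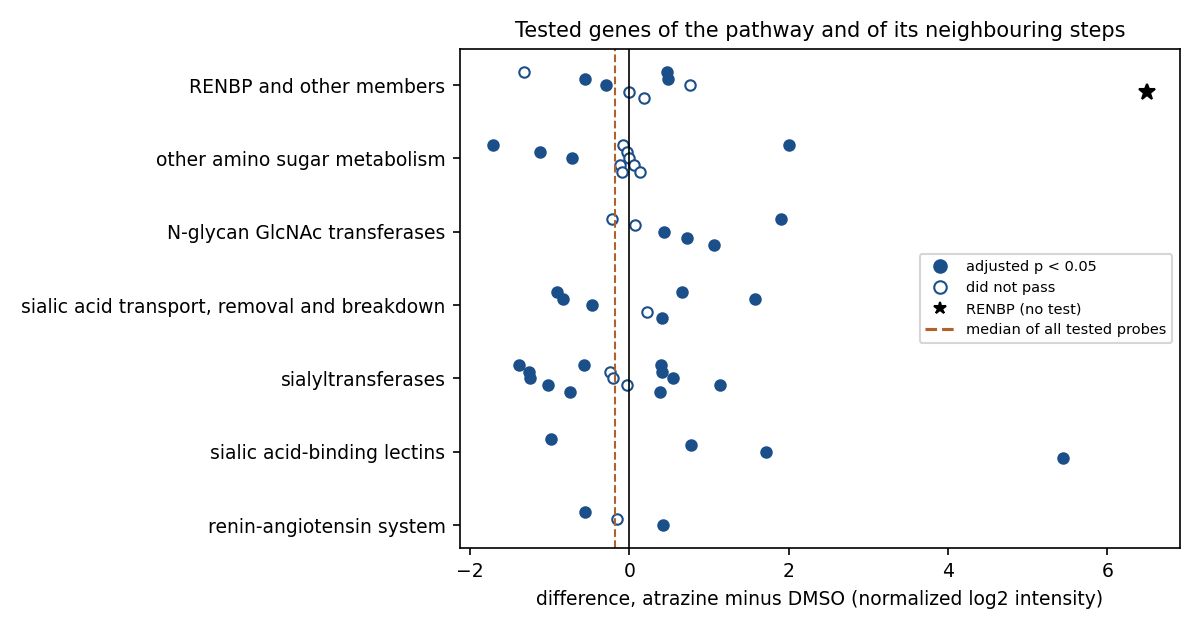
Difference of the group means, atrazine minus DMSO on the normalized log2 scale, for each tested gene of the route and of 6 lists around it. Filled points passed an adjusted p of 0.05 and open points did not, the star is RENBP with no test, and the dashed line is the median of all tested probes, -0.18. Genes given in the text as a bound are drawn at their fitted difference. RENBP at 6.50 and SIGLEC12 at 5.44, on its only tested probe, lie apart from all other points, which lie between -1.71 and 2.01.

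By likeness over the 6 arrays (Pearson's r of normalized values), the probes closest to RENBP were those of HES4, RAB31, CMTM8, GPC3 and MLLT1, with r from 0.9992 to 0.9995. Their own differences were 1.11, 1.14, 2.07, 1.94 and 1.56. The 6 points fall into the 2 groups, so r mostly reflects that a probe differs between groups and is tight within them, and of 12968 other probes 298 (2.3%) had r over 0.99, 379 (2.92%) had r under -0.99 and 4220 (32.5%) had r over 0.95 in size. Within the route r with RENBP was 0.988 for CMAS, -0.98 for NAGK, -0.95 for GNE, 0.88 for NANP and 0.87 for GFPT1. It was -0.71 for UAP1 and 0.60 for NANS, the 2 probes moved by atrazine replicate 2, and -0.16 for GNPNAT1.

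Genes next to RENBP on chromosome X were not uniformly higher. In the RefSeq gene order, the 3 nearest genes with a probe before it were L1CAM, AVPR2 and ARHGAP4, and after it HCFC1, TMEM187 and IRAK1. L1CAM, a neural adhesion molecule, rose by 1.30, and AVPR2, the renal vasopressin receptor, by 1.64 (limma adjusted p = 1.51e-04 for both). For both, the raw values of the groups overlapped. HCFC1, a transcription cofactor, fell by 1.11 (adjusted p = 0.00254) and IRAK1, a kinase of innate immune signalling, by 0.93 (adjusted p = 2.71e-04). ARHGAP4 at -0.35 (adjusted p = 0.0741) and TMEM187 at -0.32 (adjusted p = 0.0538) did not pass. With median scaling L1CAM was at 0.24 and no longer passed (adjusted p = 0.115). ARHGAP4 (-0.76, adjusted p = 0.00119) and TMEM187 (-1.30, adjusted p = 6.20e-05) then passed as falls. ARHGAP4 was above background on 2 of 3 atrazine arrays and so kept through DMSO alone, a filter that favours falls. Its adjusted p therefore adds no support to a fall.

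The labelled cell line was checked against sympathoadrenal markers. DBH, CHGA, ISL1 and STMN2 were above background on all arrays, and HAND2 was above background on none. The probes of the 10 sympathoadrenal markers with a probe held 0.417% to 0.461% of the raw signal in DMSO and 0.358% to 0.395% in atrazine. STMN2 was the brightest of them on every array, at 21354 to 30375 raw units in DMSO and 13341 to 14767 in atrazine. Of 9 tested, 2 rose and 5 fell, where 27.7% of all tested probes rose and 39.6% fell. The falls included DBH and CHGA, each by 1.63, and the rises were GAP43 by 1.13 and TH by 0.95. Leukocyte and macrophage markers, of which 4 of 8 were above background on no array, held 0.0055% to 0.00682% in DMSO and 0.0148% to 0.0163% in atrazine. The 2 tested genes were kept through atrazine alone: AIF1 was at least 6.99-fold and PTPRC at least 1.58-fold higher there on 1 probe each. Another AIF1 probe, above background on 1 of 6 arrays, and 2 other PTPRC probes, above background on none (differences 0.04 and -0.0007), were not kept. Fibroblast and mesenchymal markers held 0.0373% to 0.0445% and 0.0615% to 0.0714%, with 4 of 6 tested higher and 2 lower. The 2 lower, COL1A2 and SNAI2, were kept through DMSO alone, and PRRX1, among the higher, through atrazine alone. The 3 kept through both groups rose, a count with no like share of all probes beside it. Of these, DCN rose by 0.46 on its brightest probe and by 1.27 on another kept probe. A further DCN probe, kept through DMSO alone, was at -0.63. The 1 tested glial marker, SOX10, rose by 1.26 after normalization. Its raw values overlapped, at 105.9, 163.1 and 101.6 in DMSO and 102.9, 154.8 and 120.0 in atrazine. No kidney marker was tested. Kidney markers, 4 of 5 of them above background on no array, held 0.00245% to 0.00324% in DMSO and 0.00548% to 0.00609% in atrazine. Shares of the total include each probe's background. The part of these markers in the results for RENBP and SIGLEC12 was not tested.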

How the data were processed

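Total RNA of SH-SY5Y cells was labelled as biotinylated cRNA and hybridised to Illumina arrays, per the labels' protocols. The authors deposited raw signal intensity for 22184 probes with detection p-values, as named per the file headers, and a table of processed intensity whose sorted values are the same on every array. That table is linear, not centred and in the raw order on each array (Spearman rho 1, median 111.5), and served as an alternative. No source used here names the scanner software. The platform annotation gave 1 symbol for 19715 probes, several for 0 and none for 2469, and gene IDs linked 19695 of these probes to a current gene.

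Raw intensities were corrected for background with the normexp model from the detection p-values (offset 16), quantile normalized and set on the log2 scale in limma 3.58.1 (R 4.3.3). Each probe was its own feature. Groups, taken from the labels, were compared with lmFit and eBayes, two-sided, with Benjamini-Hochberg adjustment over 12969 probes. An exact test of 3 arrays against 3 could not go below 0.1. The procedure was tested on simulated data. Where a group has no array above background, the fold is a bound, "at least N-fold", from the lowest detected value of each array.

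Named are all member probes, up to 3 genes of smallest p per list, the 5 probes most correlated with RENBP and its 3 neighbours on either side. The members and lists were chosen with earlier results of these data known. Alternatives changed the background correction, the scaling, the filter, the probe choice, the variance model, the block and the arrays used. The number of arrays limits the precision. Promoters were matched by symbol for all 10 genes.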

Additional observations from a re-analysis of the deposited data

How the results depend on the processing

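The rise of RENBP was 5.57 without background correction, 5.79 with an offset of 50 and 5.74 in the authors' processed values. It gave no value with detection p under 0.01 on all 6 arrays, since DMSO replicate 1 then removes the probe, and leaving out 1 array at a time gave 6.06 to 6.67. Of the 8 other measured genes, 7 passed with array weights and 2 with the replicate block. When 1 array was left out, the count was 2 to 6, with 2 without DMSO replicate 3, 6 without atrazine replicate 2. For all probes the calls were 7507 to 9484 when 1 array was left out, and for the 45 genes of the lists 26 to 33. The strict detection filter left 3985 of 6178 probes called (2103 higher, 1882 lower) and 16 of 20 list genes. It tests fewer probes by construction.

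Median scaling turned the sign of GFPT1 (-0.57), CMAS (-0.74), MGAT2 (-0.086), MGAT4B (-0.44) and SLC17A5 (-0.52), and housekeeping scaling that of AGTR1 (0.60). Among values past no threshold, signs also turned for NANS (-0.27) and NANP (-0.066) with median scaling, ARHGAP4 (0.014) with housekeeping scaling, AGTR1 (0.0069) with array weights and GNPNAT1 under 4 alternatives. The cause was not tested. Of all calls, 41.2% were rises with quantile normalization, 18.2% with median scaling and 45.8% with housekeeping scaling. Of the other values for named genes under alternatives, 467 kept direction and side of the threshold, 22 passed newly and 25 no longer passed.

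Same-numbered arrays of the groups did not deviate together (r = -0.17, -0.44 and -0.29). Deviations from a mean of 3 arrays depend on one another, and atrazine replicate 2 stood apart. These r therefore cannot decide whether the numbers pair the samples. With the replicate block 7598 probes, 2 members and 28 list genes passed. Probes near background, as RENBP in DMSO, NANP, NEU4 and SIGLEC12 in DMSO, limit how far a fold can be read.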
